A study of Mus musculus with 6 samples.

Results

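Stretches of chromosomes 5 and 8 in which H3K9me3 regions lie close together were examined in mouse thymocytes with and without KAP1. Wild-type regions of these chromosomes were sorted by position and chained to the next one when the gap between them was at most 100 kb, and chains of 3 or more regions were kept. This gave 22 chains, 14 on chromosome 5 and 8 on chromosome 8. They hold 266 of the 3748 wild-type regions, and 78 of the 605 knockout regions overlap the span of a chain by at least 1 base, so that the members number 344 of 4353 regions in all. The chains were thus selected on the wild-type start and end positions, and the closeness of their regions is not a finding.

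The series holds 6 chromatin immunoprecipitation samples of total thymocytes, the developing T cells of the thymus, from mice on a C57BL/6 / sv129sv background. The groups used here are H3K9me3 immunoprecipitations of wild type and of a T cell-specific Kap1 knockout, with 1 library each. The 2 KAP1 immunoprecipitations and the 2 inputs were not analysed here. The Cre driver of the knockout, the age of the mice and any pooling of animals are not stated in the labels, and the region lists cannot be set against cell type markers. With 1 library per genotype no difference below has a replicate check. The lists give positions on the mm9 genome only, so read depth is unknown and the absence of a call does not show the absence of the mark.

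H3K9me3, trimethylated lysine 9 of histone H3, marks silenced chromatin. KAP1 (Trim28) does not bind a fixed DNA sequence itself. KRAB zinc finger proteins, which read DNA through their fingers, bring it to repeated elements and to clustered gene families, where it recruits the methyltransferase SETDB1 and HP1 proteins. Other enzymes such as SUV39H1 and SUV39H2 place the same mark without KAP1, mainly in pericentromeric satellite repeats. Proximal mouse chromosome 8 is known for its defensin genes, which encode antimicrobial peptides; which regions fall on genes or repeats was not analysed here, since no mm9 annotation or sequence was used.

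Most chained wild-type regions had no call in the knockout, but most of their length did, since wide regions were retained more often than narrow ones. A wild-type region is called retained when at least 1 base of it lies in a knockout region, its partner, and lost otherwise. Of the 266 chained regions, 81 were retained, or 30.5% (Wilson 95% interval 25.2 to 36.2%), against a background of 17.5% over the whole wild-type list, and 185 were lost, against a background of 82.5%. All intervals below reflect counting alone and take each region as a separate draw, which neighbours are not. Chained regions covered 1736 kb in wild type, of which 1006 kb, or 58.0%, also lay in knockout regions. Over the whole wild-type list this length share was 38.4%.

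The share of regions retained was close between the chromosomes, and the share of length retained was further apart. On chromosome 5, 57 of 180 chained regions were retained (31.7%, interval 25.3 to 38.8%), and 51.6% of the covered length lay in knockout regions. On chromosome 8 the number was 24 of 86 (27.9%, 19.5 to 38.2%) and the length share 66.3%. Regions of the same chromosomes outside chains were retained in 12 of 142 cases (8.45%, 4.90 to 14.2%), and they were narrower, with a median width of 665 bp against 2797.5 bp in chains. In the chains of all other chromosomes 461 of 2045 regions were retained (22.5%, 20.8 to 24.4%), and in those of the other autosomes 313 of 1761 (17.8%, 16.1 to 19.6%). The length share in the chains of all other chromosomes was 37.7%. Single chromosomes varied widely, from 0% of 20 chained regions retained on chromosome 15 to 79.4% of 34 on chromosome 1. The values of chromosomes 5 and 8 lie inside that range. The span of the chains of chromosomes 5 and 8 held 1046 kb of knockout regions, a wild-type to knockout ratio of 1.66. Knockout members had a median width of 5151.5 bp.

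A large part of the retained length came from 3 chains. The chains at 14.9 Mb of chromosome 5 and at 19.7 and 71.9 Mb of chromosome 8 held 64.3% of the retained length of all 22, with 31 wild-type regions, 26 of them retained. Without these 3, a setting chosen after their values were seen, 33.6% of the length and 23.4% of the regions were retained, and the ratio of covered length was 2.73. The order of the chromosomes by length turned as well, to 38.4% on chromosome 5 and 21.8% on chromosome 8.

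**Figure D1:**
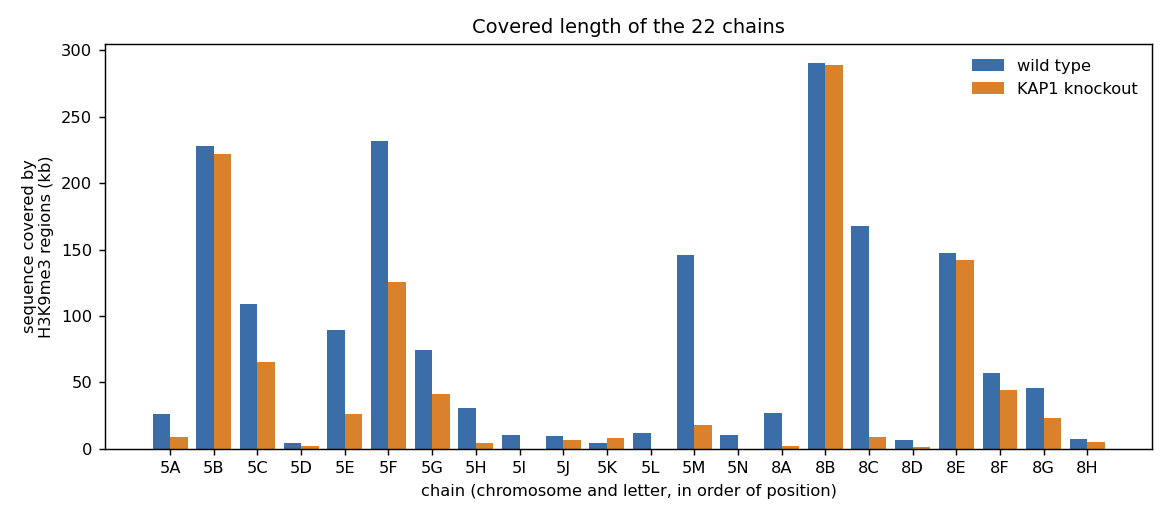
Length covered by H3K9me3 regions (kb) in each of the 22 chains, wild type in blue and KAP1 knockout in orange, 1 library each. Letters give the order of position along chromosome 5 (5A to 5N) and chromosome 8 (8A to 8H). Bars of about equal height are seen in 5B (14.9 Mb), 8B (19.7 Mb) and 8E (71.9 Mb), while 5M (146.2 Mb) and 8C (22.2 Mb) have a tall wild-type and a short knockout bar.

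Wide chained regions were retained more often than narrow ones, to about the degree seen in the chains of other chromosomes. Of the chained regions under 1 kb 4 of 41 were retained, of those of 1 to 5 kb 25 of 149, of those of 5 to 10 kb 17 of 31, of those of 10 to 20 kb 11 of 19, and of those of 20 kb or more 24 of 26. In the chains of the other chromosomes the shares in these classes were 9.53, 16.9, 42.4, 61.7 and 97.9%, against 9.76, 16.8, 54.8, 57.9 and 92.3% here. Width itself raises the odds of an overlap by 1 base, and these counts do not allow for it. By length, the shares inside knockout regions on chromosomes 5 and 8 were 9.37, 16.8, 36.0, 45.1 and 85.6% in these classes. The chromosomes stood furthest apart at 10 to 20 kb, where 8 of 9 regions were retained on chromosome 5 and 3 of 10 on chromosome 8. On chromosome 8 the share did not go up evenly, since 3 of 4 regions of 5 to 10 kb were retained. All 7 regions of 10 to 20 kb that were lost on chromosome 8 lay in 1 chain, at 22.2 Mb, which therefore sets the value of 3 of 10.

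**Figure D2:**
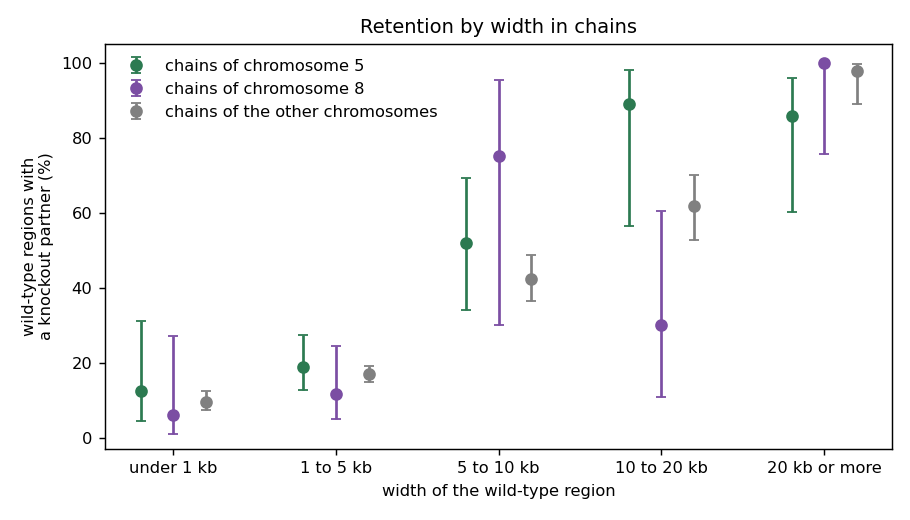
Share of chained wild-type regions with a knockout partner (%) by width, for chromosome 5 (green), chromosome 8 (purple) and the chains of the other chromosomes (grey), with Wilson 95% intervals for counting error. The share is 4 of 41 under 1 kb and 24 of 26 at 20 kb or more on chromosomes 5 and 8 together.

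Wide regions, here those of 10 kb or more, were used to set chains apart. There were 45 of them in 10 of the 22 chains; 35 were retained (77.8%, interval 63.7 to 87.5%), against a background of 73.5% over the 215 wide regions of the whole list, and 10 were lost, against a background of 26.5%. In 8 chains every wide region was retained, 4 on each chromosome. Lost wide regions lay in 2 chains, at 146.2 Mb of chromosome 5 and at 22.2 Mb of chromosome 8, each of which also kept 1 wide region. These counts depend on the settings: chains with a lost wide region numbered 6 when 50% of both regions had to overlap, 4 with a gap limit of 50 kb, 7 with neighbours up to 10 kb apart merged and 8 with wide set at 5 kb. No chain of chromosomes 5 and 8 had only lost wide regions. Of the 193 chains elsewhere 18 were of this class, 30 kept every wide region, 5 had both and 140 had no wide region. The absence of this class here depends on the gap limit. With 50 kb, the gaps of 66422 bp in 8C and 65031 bp in 5M split off pieces whose wide regions were all lost. The overlap chose these classes, so the retention of their wide regions is given as a description. Widths near the limit were 9940 bp (retained, chromosome 5) and 9448 bp (retained, chromosome 8) just below it, and 10076 bp (lost, chromosome 5) and 10099 bp (lost, chromosome 8) just above it.

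What the classing did not use is how much of each retained wide region the knockout kept. Of the 35, 17 lay over 90% inside knockout regions, 17 between 50 and 90%, and 1 below 50%. The 17 with most cover belonged to 4 chains, 5B, 8B, 8E and 8G. On chromosome 8 the median cover was 98.8% (15 regions), and on chromosome 5 it was 86.1% (20 regions). This order rests on the best covered chains: without 5B, 8B and 8E it turned, to 50.8% on chromosome 8 (5 regions) and 80.4% on chromosome 5 (14 regions). All wide regions of 5B, 8B and 8E were among them, and 1 of 2 in 8G.

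**Figure D3:**
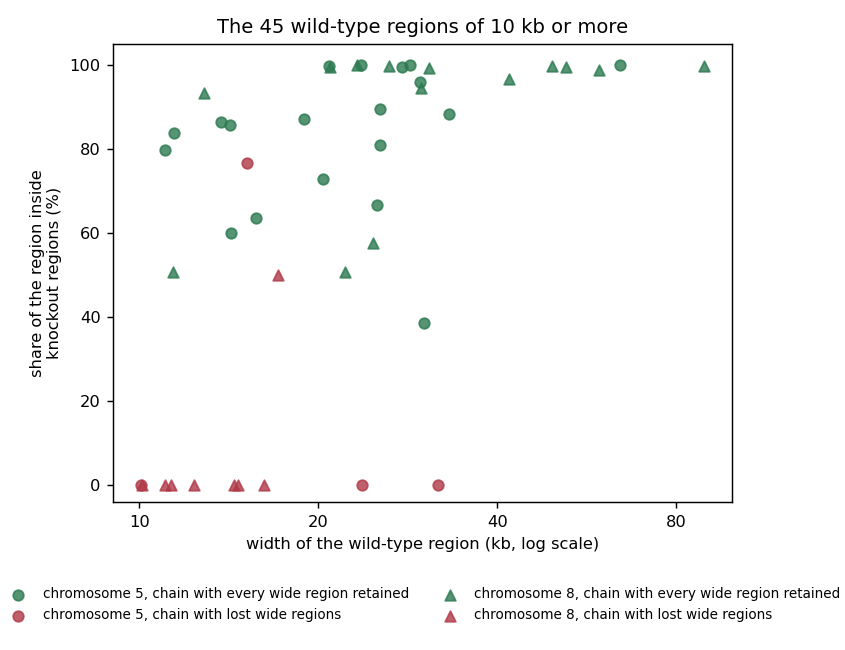
Share of each of the 45 wide wild-type regions that lies inside knockout regions (%), against its width (kb, log scale); circles are chromosome 5 and triangles chromosome 8, green for chains with every wide region retained and red for the 2 chains with lost wide regions. The 10 lost regions lie at 0% and measure 10.1 to 31.8 kb, and all regions over 40 kb lie above 96%.

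Whole regions were seen in 3 chains. Chain 8B (chromosome 8, 19655021 to 20038028) held 9 wild-type regions over 290 kb, and 98.9% of that length was inside knockout regions. Its region from 19679433 to 19738702 was 59.3 kb wide, and its partner 58.5 kb. The region from 19741304 to 19793586 was 52.3 kb wide against 52.1 kb in the knockout, and that from 19853154 to 19902684 was 49.5 kb wide in both. The last stretch was called as regions of 30.7 and 89.0 kb in wild type, 1320 bp apart, and as 1 region of 120 kb in the knockout. The 2 lost regions of this chain were its first ones, of 616 and 712 bp, so loss here touched only its edge.

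Chain 8E (chromosome 8, 71941961 to 72121989) had 6 of 7 regions retained over 147 kb, with 96.3% of the length inside knockout regions. Its 5 wide regions measured 20.9 to 41.9 kb and lay 94.5 to 100% inside their partners. The lost region was its last, 2215 bp wide. As in chain 8B, the missing call lay at the border of the chain.

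Chain 5B (chromosome 5, 14871489 to 15222171) had 13 of 15 regions retained, an unbroken run, and 95.7% of its 228 kb lay in knockout regions. The first 2 regions, 4392 and 2763 bp wide, were lost, as in chain 8B at the border. The widest region (14899771 to 14964159) measured 64389 bp, and its knockout partner 64368 bp. Narrow regions of the chain matched less closely than this one: one of 4080 bp (from 14994222) had a partner of 3934 bp, and one of 4056 bp (from 15183660) a partner of 4026 bp. Its other wide regions measured 20.9, 27.7, 28.5, 23.6 and 29.7 kb and were covered over 95.9% or more of their length. An exception was the region of 1516 bp from 15061199, whose partner measured 693 bp. A knockout region of 57.5 kb (15112630 to 15170112) spanned 3 wild-type regions of 28.5, 1.64 and 23.6 kb.

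Edges lay close as well in these 3 chains. They are the chains with the highest share of length in knockout regions, which already implies small edge shifts in part. Among regions that pair 1 to 1, the median shift was 103 bp at the start and 20 bp at the end in chain 5B (10 pairs), 72 and 84 bp in 8B (5 pairs), and 162 and 90 bp in 8E (6 pairs). Over all 63 such pairs in the chains the medians were 360 and 260 bp. They were 475 and 339 bp in the chains of other chromosomes, and 255 and 215.5 bp over the whole lists. The knockout region was the narrower one in 53 of the 63 pairs and the wider one in 10. It was the narrower one in 206 of 267 pairs in the chains of other chromosomes, and in 340 of 444 over the whole lists. Pairing 1 to 1 leaves out the 7 knockout members that span 2 or more wild-type regions, which favours narrower ones. It also leaves out the 3 wild-type members that hold 2 or more knockout regions. Over the 63 pairs the median log2 ratio of knockout to wild-type width was -0.15 (quartiles -0.60 and -0.01). The median was -0.21 on chromosome 5 (45 pairs) and -0.034 on chromosome 8 (18 pairs), where 11 of the pairs belong to chains 8B and 8E. Over the 444 such pairs of the whole lists it was -0.16.

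Fragmented regions were seen in chain 5C (chromosome 5, 26323128 to 26449217), the most densely covered chain, where wild-type regions took up 86.6% of the span. Of its 109 kb, 60.2% lay in knockout regions. The region from 26340604 to 26370719, 30.1 kb wide, held 2 knockout regions of 10.8 kb and 784 bp, and 38.5% of it was covered, the lowest value among retained wide regions. The region of 15.7 kb from 26323128 held 2 of 4584 and 5383 bp. By contrast, the last and widest one, 33.2 kb from 26415982, had a single partner of 29.3 kb. Regions of 1427 and 8385 bp between them were lost, so in this chain the missing calls lay inside and not at the border.

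Chains 8F and 8G, neighbours on chromosome 8, had shifted or partial partners. In chain 8F (73604114 to 73719809) 5 of 9 regions were retained, and 55.5% of 57.3 kb lay in knockout regions. A knockout region of 22.5 kb (73645661 to 73668124) covered the start of the 24.7 kb wild-type region and the 5774 bp region before it, and 57.5% of the wide region was inside it. In chain 8G (74257137 to 74387306) both wide regions were retained and all 6 narrow ones, of 188 to 3375 bp, were lost. Of its wide regions the one of 12.9 kb was covered over 93.4% of its length and the one of 22.2 kb over 50.8%.

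Loss of wide regions was concentrated in chain 8C (chromosome 8, 22160064 to 22816636). It held 35 wild-type regions over 168 kb, and a single knockout region of 8554 bp (22667564 to 22676117), which covered 5.10% of that length. The wild-type to knockout ratio of covered length was 19.6. The lost wide regions measured 14.6, 16.2, 14.4, 11.1, 12.4, 11.3 and 10.1 kb in order of position. The retained one, of 17.1 kb (22666554 to 22683652), was the widest of the chain, and 50.0% of it was covered. A run of 25 lost regions came before it and one of 9 after it, the first being the longest run in any of the 22 chains. Lost regions of this chain lay a median of 161 kb from the nearest knockout region.

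Chain 5M (chromosome 5, 146224404 to 146685074) had 4 of 23 regions retained, and 11.2% of its 146 kb lay in knockout regions. Its lost wide regions measured 31.8 kb (146317909 to 146349747), 10.1 kb (from 146360260) and 23.7 kb (from 146504072). Its widest lost region below 10 kb measured 7179 bp. Its retained wide region, of 15.2 kb from 146399627, shared a knockout region of 14.0 kb with the 6765 bp region before it. Both other retained regions had partners much narrower than themselves: 1735 bp against 4014 bp, and 2487 bp against 7446 bp. The latter lay 1086 bp from the lost region of 23.7 kb, so a called and a missing region stood side by side.

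**Figure D4:**
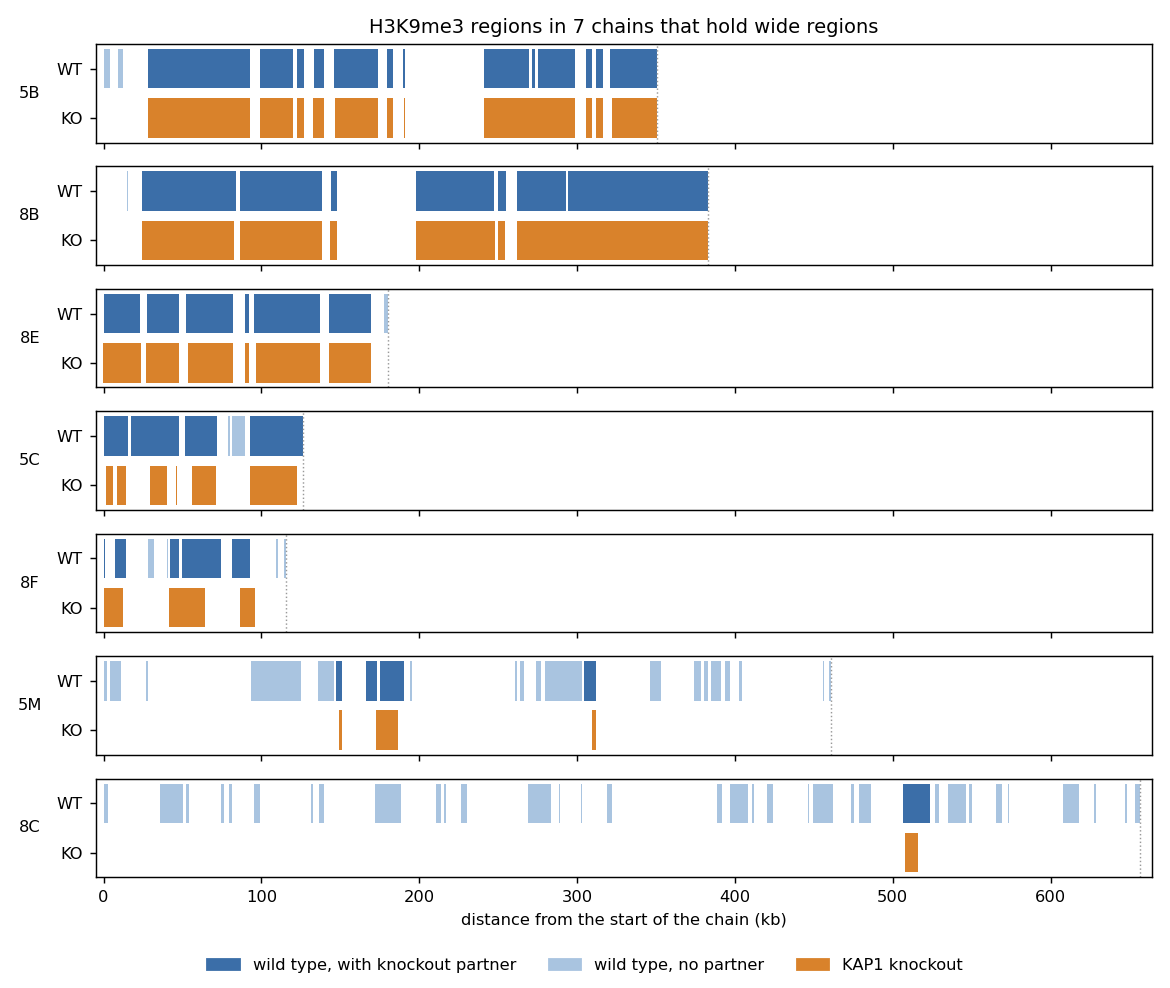
Position of H3K9me3 regions along 7 chains, as distance from the start of each chain (kb), wild type above and knockout below; dark blue regions have a knockout partner, light blue ones have none, and the dotted line is the end of the chain. In 5B, 8B and 8E both rows match nearly edge to edge, in 5C and 8F the knockout row is broken or shifted, and in 5M and 8C it holds 3 and 1 regions.

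The narrow regions of a chain were not used to class it. In the 8 chains with every wide region retained, 26 of 82 narrow regions were retained (31.7%, interval 22.6 to 42.4%). In the 2 chains with lost wide regions 3 of 46 were retained (6.52%, 2.24 to 17.5%), and in the 12 chains with no wide region 17 of 93 (18.3%, 11.7 to 27.3%). The 2 chains with lost wide regions differed. All 3 retained narrow regions lay in 5M, which had 23 regions, 4 of them wide. Chain 8C, with 35 regions, 8 of them wide, kept no narrow region, so the pooled share is low through 8C. The background for regions under 10 kb was 14.1% over the whole list and 18.5% over the chains of all chromosomes. Leaving out narrow regions whose partner also overlaps a wide one gave 24 of 80 and 2 of 45. Median widths of the narrow regions were 2482.5, 2320.5 and 2048 bp in these classes. The regions of 2 chains are not independent of each other, and with 2 such chains the difference has no test. With 5 kb taken as the limit of wide, the classes held 8 chains with every wide region retained and 8 with a lost one, and 10 of 45, 13 of 121 and 6 of 24 narrow regions were retained in the same order, so that the highest share was then that of chains with no wide region.

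Some features of the wild-type list set chain 8C apart from the chains with every wide region retained. None of those given here set 5M apart. Wild-type regions took up 25.5% of the span in 8C and 31.7% in 5M. The chains with every wide region retained ran from 27.7% in chain 5F (94.8 Mb) to 86.6% in 5C. Chain 8C thus lay below all of them, and 5M above 5F only. The widest region measured 17.1 kb in 8C and 31.8 kb in 5M, against 22.2 kb or more in those chains. Wide regions made up 63.9% of the covered length in 8C and 55.4% in 5M, against 47.1% in 5F and 96.7% in 8B. Lost wide regions had a median width of 13.4 kb (10 regions) and retained ones of 24.7 kb (35 regions), with ranges of 10.1 to 31.8 and 11.0 to 89.0 kb, which overlap.

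Chains 5E to 5H lie in succession on chromosome 5 from 93850926 to 96232062 and hold 108 wild-type regions, 60.0% of the chained regions of that chromosome. The gaps between them, 130, 123 and 114 kb, are just above the limit, and 2 gaps inside chain 5F, of 96.6 and 97.9 kb, are just below it, as is one of 99.8 kb in chain 5N (147.2 Mb). Of the 108 regions 30 were retained, and the wild type covered 426 kb against 197 kb for the knockout. Chain 5E (93850926 to 94679007) had 7 of 35 regions retained and no wide region. Chain 5F (94809272 to 95645047), with 50 regions the largest of either chromosome, had 16 retained, among them all 6 wide ones. Chain 5G (95768015 to 95908009) had 6 of 11 retained and chain 5H (96021689 to 96232062) 1 of 12. In order of position the shares were 20.0% (interval 10.0 to 35.9%), 32.0% (20.8 to 45.8%), 54.5% (28.0 to 78.7%) and 8.33% (1.49 to 35.4%). The share was highest in 5G, but the intervals overlap and the borders between these chains rest on the gap limit.

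Within chains 5F and 5G, similar arrangements occur in 3 stretches, chosen after their values were seen. They start at 95110450, 95450703 and 95768015, where wild-type regions of 5933, 5944 and 5926 bp each held a knockout region of exactly 2541 bp. The next wild-type regions measured 3993, 3986 and 1876 bp, and their partners 3720, 3711 and 1373 bp. Each stretch then had 3 wide regions. The first of these measured 13.7, 11.5 and 11.0 kb and was covered over 86.4, 83.8 and 79.8% of its length. The second measured 18.9, 14.2 and 14.3 kb, with cover of 87.0, 85.7 and 59.9%. The third was nearly equally wide in each, 25.4, 25.4 and 25.1 kb, but its partners measured 22.8, 20.6 and 16.7 kb. In the 140 kb from each start, 6 wild-type regions were retained in every stretch, out of 11, 13 and 11, and the share of length in knockout regions was 73.3, 62.8 and 55.8%. A narrow region beside the second wide one (1466, 1471 and 1461 bp) was lost in every stretch. The stretches are alike in which regions have a partner, and differ in how much of each is covered.

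**Figure D5:**
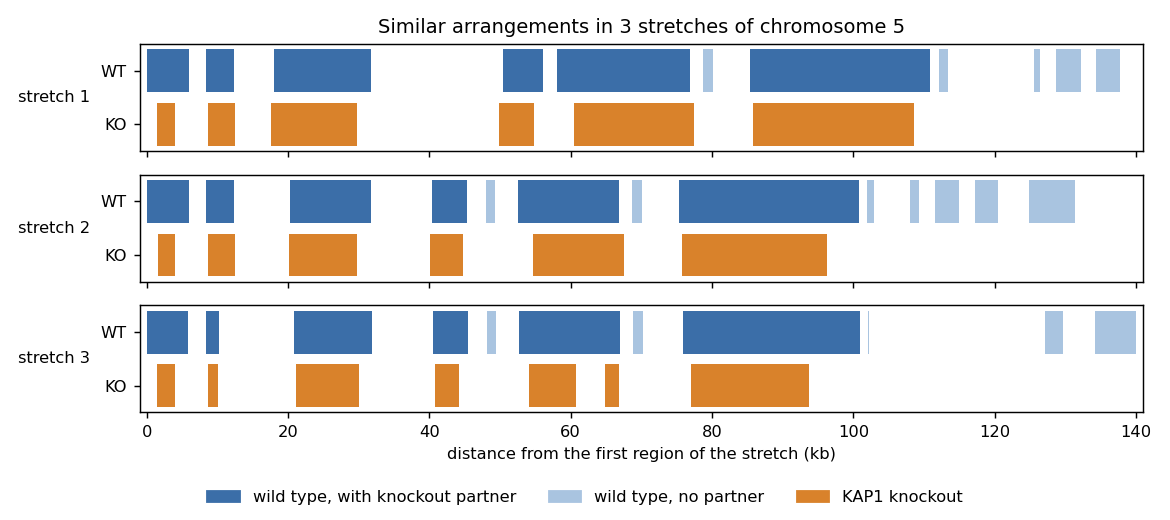
H3K9me3 regions in 3 stretches of 140 kb on chromosome 5, aligned at their first region (distance in kb), wild type above and knockout below, colours as in the maps of whole chains. The order of wide, narrow, retained and lost regions is alike in the 3 stretches, and the knockout covers 73.3, 62.8 and 55.8% of the wild-type length.

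Chains 5E and 5H share an arrangement too. Regions of 3934, 6384, 1207 and 1018 bp in 5E (from 94424476, 94569002, 94579353 and 94590407) recur in 5H as 3934, 6376, 1207 and 1020 bp (from 96090293, 96184609, 96194952 and 96206007). The one of 6384 bp had a partner of 4204 bp and the one of 6376 bp a partner of 4196 bp, while the other 3 were lost in both chains. Chain 5I (105048180 to 105121626), with no knockout region, consists of regions of 3113 and 2048 bp that occur a second time with the same widths.

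A search of the wild-type list for successive regions whose widths and start spacing recur elsewhere within 10 bp found 22 chained regions of chromosome 5 and none of chromosome 8. That is 8.27% of the chained regions, against 10.2% in the chains of other chromosomes and 6.56% of the whole list. They formed 11 matched pairs of regions, and in all 11 both regions had the same status, 2 pairs retained and 9 lost. With a tolerance of 50 bp there were 57 regions, 4 of them in chain 8C, and 28 matched pairs, again all of equal status. At 50 bp the share was 21.4% here, 16.5% in the chains of other chromosomes and 11.0% of the whole list, so the order of the first 2 turned. Retained were 4 of the 22 regions and 14 of the 57, so many pairs would be of equal status whatever the match. Agreement beyond that was not tested. Neither the sequence under these regions nor the placement of reads that align to several copies was examined, so how many separate sites they stand for was not tested.

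Of 244 pairs of neighbours within a chain, 190 had the same status (77.9%), 47 both retained and 143 both lost. Chains that are nearly all lost, such as 8C, or nearly all retained, such as 5B, give many equal pairs whatever the order of their regions, so the count does not show grouping within a chain. The longest retained run was the 13 regions of chain 5B, followed by 7 in 8B and 6 in 8E. Of the 185 lost regions 35 lay within 10 kb of a knockout region and 49 more than 100 kb from one, with a median of 35.6 kb.

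The remaining 10 chains had no wide region, and 9 of their 46 regions were retained (19.6%, interval 10.7 to 33.2%). Over all chromosomes the share was 13.5% in chains with no wide region and 18.5% for chained regions under 10 kb. The background of the whole list, which also holds wide and unchained regions, was 17.5%. Each chromosome has a chain near its first assembled base, 5A (3004363 to 3138701) and 8A (3005844 to 3077724), with 8 regions apiece, 1 of them retained. In 5A the retained region, its first, was 8927 bp wide with a partner of 10.1 kb, and in 8A it was the last, 9448 bp wide with a partner of 2407 bp. The widest lost region of 5A measured 7377 bp. In both chains the widest region was the retained one.

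Of the 12 chains with no wide region, 3 held no knockout region at all, 5I, 5L (138462310 to 138495769) and 5N (147218202 to 147364763). Over the whole list this held for 95 of the 152 chains with no wide region. Counted over all chains it was 3 of 22 here, against a background of 48.4% of the 215 chains of the whole list. Chains 5I, 5L and 5N covered 10.3, 12.0 and 10.3 kb in wild type. Chain 5L also has 2 regions of exactly 5255 bp, each 10716 bp after the region before it. In 5J (105285700 to 105363380), by contrast, a lone retained region of 6924 bp had a partner of 6949 bp. In 5K (126314657 to 126328730) 1 knockout region of 8139 bp spanned both retained regions of 1678 and 1508 bp and the gap between them, so that the knockout covered more than the 4.62 kb of the wild type. Chains 5D (80239214 to 80253307) and 8H (106592162 to 106622455) had 2 of 3 and 2 of 5 regions retained. Chain 8D (57957303 to 58075471) had none of 5 retained.

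Knockout regions seldom lay in a chain without touching a wild-type region. Of the 78 knockout members, 69 overlapped 1 wild-type region, 7 spanned 2 or more, 15 in all, and 2 overlapped none, against a background of 8.60% of the knockout list without a wild-type partner. These 2 measured 2079 bp (94111473 to 94113551, chain 5E) and 1580 bp (57988640 to 57990219, chain 8D). The latter is the only knockout region of its chain. Members were chosen for lying in the span of a chain, where wild-type regions are dense. That choice by itself favours a share below the 8.60%. After those of 120 and 57.5 kb, the widest knockout regions spanning several wild-type ones measured 22.5, 14.0 and 12.2 kb, in chains 8F, 5M and 8F.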

How the data were processed

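The deposited files list H3K9me3 regions by chromosome and by first and last position, and those positions are the values used here. Per the submitters' processing notes, the authors aligned reads with Bowtie to mm9; the Bowtie version, region caller, thresholds, use of input and handling of reads with several alignments are not stated there. Starts were read as counted from 0 and are printed counted from 1.

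Chains, partners, covered bases, pairs and recurring arrangements were computed in Python 3.11.15 with pandas 2.3.3 and numpy 2.4.6; Wilson intervals came from scipy 1.17.1. The procedures were checked on simulated data with planted chains and copies. No test between genotypes was run, since each has 1 library. The members, classes and lists were chosen with earlier results of these data known. Regions named are the 3 chains with most regions per chromosome, chains with a wide region, the 6 widest retained and 6 widest lost regions per chromosome, knockout regions that span several wild-type ones or touch none, and those nearest the limits; other regions and chains were added after their values were seen. Alternatives were other overlap rules, gap limits, chain sizes and width limits, joining of neighbours and leaving out chains. Gene lists, GC content and repeats were not run, since the reference tables used are on GRCm38 and no mm9 sequence was used.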

Additional observations from a re-analysis of the deposited data

How the results depend on the processing

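Of 68 values under changed settings 43 stayed within the Wilson interval of the main value, within 1.1 times for lengths, within 0.1 for a log2 ratio or within 1.5 times for counts. The other 25 moved, and 0 reversed. Only the log2 ratio could be labelled reversed, by a change of sign, so the 0 says nothing on shares, lengths or counts. Orders between groups, which turned under some settings described above, were not part of this tally. The share of chained regions retained, 30.5%, was 25.2% with 50% cover of the wild-type region required, 19.9% with 50% cover of both regions, 43.6% with knockout regions up to 10 kb away accepted, and 23.4% without the chains 5B, 8B and 8E. The retained length share, 58.0%, was 51.6% on chromosome 5, 66.3% on chromosome 8, 65.5% without chains 5F and 8C, which hold most regions on their chromosomes, and 33.6% without 5B, 8B and 8E (38.4% on chromosome 5 and 21.8% on chromosome 8). The ratio of covered length, 1.66, was 1.86, 1.45, 1.47 and 2.73 on chromosome 5, on chromosome 8, without 5F and 8C, and without 5B, 8B and 8E. With 50% cover of both regions 4 chains kept every wide region and 6 had a lost one, against 8 and 2. Chains with a lost wide region numbered 4 with a gap limit of 50 kb, 7 with neighbours merged over gaps of up to 10 kb, and 8 with 5 kb as the limit of wide. With that limit 22.2% of narrow regions were retained in chains with every wide region retained, against 31.7%. Chains with no knockout region, 3, were 7 and 5 with gap limits of 50 and 200 kb and 0 among chains of 5 or more regions. The median log2 width ratio was -0.034 on chromosome 8. Regions in recurring arrangements, 22, were 57 with a tolerance of 50 bp. For a stricter overlap, fewer chains or another limit the change follows from the setting itself. The settings without chains 5B, 8B and 8E and with inverted order were chosen after the data were seen. No paired analysis was possible because either genotype has a single H3K9me3 library. Depth is unknown and limits every value.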

Other observations

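The chains 5A and 8A at the start of their chromosomes have counterparts elsewhere. On 13 chromosomes the first wild-type region starts between 3.0 and 3.2 Mb, and on all 13 it belongs to a chain. These chains hold 141 wild-type regions, of which 34 were retained (24.1%, against a background of 23.5% over all chained regions), and 2 of the 13 held no knockout region, those of chromosomes 7 and 13. The share of their wild-type length inside knockout regions was 34.2% in 5A and 8.88% in 8A, and ran from 0% on chromosomes 7 and 13 to 81.1% on chromosome X. On chromosomes 9, 11 and 15 the first region starts just before 3.0 Mb. That of chromosome 9 stands alone, is 38.5 kb wide and lies 99.98% inside a knockout region, the chain of chromosome 11 is retained over 99.5% of its length, and that of chromosome 15 over 0%. Whether satellite or other repeats lie under these regions was not analysed here.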
